A study of Homo sapiens with 6 samples.

Results

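Red cell membrane and blood group genes encode the proteins that carry blood group antigens on the erythrocyte surface and those that tie the lipid bilayer to the spectrin skeleton beneath it. The set was named by gene and comprised GYPB, GYPC, GYPE, RHAG, XK, KEL, ANK1 and EPB42, with every probe set that the platform annotation assigned to one of them. Of the 8 genes, 5 had at least 1 probe set in the annotation used here, out of 19775 genes with one in the series. RHAG had 3 probe sets, XK, KEL and EPB42 had 1 each and ANK1 had 7, which makes 13, and 0 of these were shared with another gene. The glycophorin genes GYPB, GYPC and GYPE were not analysed here.

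RNA was measured in K562 cells, an established line from a patient with chronic myeloid leukaemia in blast crisis that retains an erythroid expression programme, on 6 Affymetrix HG-U133 Plus 2.0 arrays. Cells were nucleofected with the siRNA RNAi8 or with scrambled RNA (scrRNA), at up to 200 nM, and 24 h later received all-trans retinoic acid (ATRA) or DMSO. The 4 groups were RNAi8 with ATRA in experiments 1 and 3, scrRNA with ATRA in experiments 1 and 3, RNAi8 with DMSO in experiment 2, and scrRNA with DMSO in experiment 2. Every group was thus nucleofected, each DMSO group was a single array, and all arrays came from 1 cell line. The labels do not name the target of RNAi8, and the title of the study names PRAME, a repressor of retinoic acid receptor signalling.

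In the mature red cell, ankyrin (ANK1) links spectrin to the band 3 anion exchanger, and protein 4.2 (EPB42) binds at that junction. The Rh-associated glycoprotein (RHAG) is a gas and ammonium channel protein needed to bring the Rh antigens to the surface. Kell (KEL), an endothelin-cleaving metalloproteinase, is joined by a disulphide bond to XK, a lipid scramblase, and loss of XK causes McLeod syndrome. The glycophorins are sialic acid-rich proteins, of which GYPC anchors the skeleton through protein 4.1 and GYPB carries the S and s antigens. Many of these genes are activated in erythroid cells by GATA1.

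The promoters of RHAG, KEL and EPB42, 3 of the 5 measured members, are shown because they hold the type of motif that GATA1 binds. Those of XK and ANK1 were not used here. Each run covers 250 bases before to 50 bases after the start site, 5′ to 3′ on the gene's strand, from RefSeq with build GRCh38.p14. Capitals mark the GATA motif, whose searched forms were AGATAA and its variant ending in G, AGATAG, together with the forms that begin with T, namely TGATAA and its variant TGATAG. Both strands were searched, so that a motif on the opposite strand appears as its reverse complement.
RHAG, chr6:49636790-49637089, minus strand: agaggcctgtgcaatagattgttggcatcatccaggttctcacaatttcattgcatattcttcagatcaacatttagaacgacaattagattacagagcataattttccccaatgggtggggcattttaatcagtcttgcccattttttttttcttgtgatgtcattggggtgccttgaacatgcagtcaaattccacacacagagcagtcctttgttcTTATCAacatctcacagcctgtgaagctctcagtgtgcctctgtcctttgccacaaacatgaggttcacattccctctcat
KEL, chr7:142962314-142962613, minus strand: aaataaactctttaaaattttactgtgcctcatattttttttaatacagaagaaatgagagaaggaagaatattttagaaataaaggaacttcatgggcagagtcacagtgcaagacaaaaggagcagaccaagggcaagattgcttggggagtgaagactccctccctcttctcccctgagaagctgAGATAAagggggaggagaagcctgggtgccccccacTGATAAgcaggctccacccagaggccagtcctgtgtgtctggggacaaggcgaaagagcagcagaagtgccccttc
EPB42, chr15:43220969-43221268, minus strand: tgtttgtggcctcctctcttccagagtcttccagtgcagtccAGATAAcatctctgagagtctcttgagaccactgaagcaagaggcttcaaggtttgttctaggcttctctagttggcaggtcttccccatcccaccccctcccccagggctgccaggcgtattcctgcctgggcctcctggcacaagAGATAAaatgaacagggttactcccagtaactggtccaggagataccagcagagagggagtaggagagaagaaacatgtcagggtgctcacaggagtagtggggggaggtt

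RHAG held 1 GATA motif, on the opposite strand and starting at position -31 from the start site. KEL held 2, starting at -62 and -26, and EPB42 held 2, starting at -208 and -61, all on the gene's strand. A promoter was used for 6 of the 8 genes, those of GYPB, GYPC and GYPE among them, and 6 of 6 held at least 1 GATA motif. Of 35116 RefSeq promoters of the same length, 25.0% held one. That share counts promoters, whereas the 6 are genes, and GYPB had more than 1 promoter. The GYPB and GYPE promoters are nearly alike around their motifs, so the 6 are not separate observations. The CACC box (CCACACCC, or with a G in the middle CCACGCCC), the type of motif bound by KLF1, was in 0 of the 6 and in 8.05% of all promoters. The searched retinoid receptor motif (AGGTCA, or beginning with G as GGGTCA) is part of a receptor site and not a whole one. It was in 1 of the 6, that of GYPC, and in 25.6% of all promoters. These matches describe letters in a window and are not measured binding sites.

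Array medians lay between 5.96 and 6.02 on the log2 scale. Pearson correlations over all probe sets were 0.996 to 0.998 between arrays of experiments 1 and 2 and 0.979 to 0.982 between those and the arrays of experiment 3. The 3′ minus 5′ difference of the actin control probe sets, which grows as RNA is degraded or poorly extended, was 2.98 and 3.36 in experiment 3 and 0.63 to 0.92 in experiments 1 and 2. Results that rest on experiment 3 are therefore given with and without it. All 7 erythroid markers, among them HBZ at 12.03, exceeded the median of all values (5.99). Of all 19775 genes, 12875 were at or above it on their brightest probe set. Below it were 3 of 6 granulocyte and monocyte markers, 2 of 6 megakaryocyte, 2 of 4 measured lymphocyte and 1 of 4 stroma markers. LYZ was highest of the granulocyte and monocyte markers at 9.73, and COL1A1 of the stroma markers at 8.41. In such bulk RNA, fewer cells of a type and less RNA per cell cannot be told apart. PRAME averaged 12.12 ± 0.02 in RNAi8 arrays and 12.90 ± 0.17 in scrRNA arrays (SD, n = 3 each), a difference of -0.78. Its adjusted p in limma was 1 without a block and 9.97e-04 with the experiment as a block, and 0.142 with that block and without experiment 2.

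RHAG, the membrane channel of the Rh complex, was higher with RNAi8 than with scrRNA in every experiment and on each of its 3 probe sets, but the difference did not pass the test over all genes. The brightest of its probe sets read 11.76 with RNAi8 and 11.58 with scrRNA in experiment 1, and 11.96 and 11.59 in experiment 3, both under ATRA. Under DMSO in experiment 2 it read 11.92 with RNAi8 and 11.80 with scrRNA. The lowest RNAi8 array was below the highest scrRNA array, so the groups overlapped, and the separation was within each experiment.

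On this probe set RHAG averaged 11.88 ± 0.11 with RNAi8 and 11.66 ± 0.12 with scrRNA (SD, n = 3 each), a log2 difference of 0.22 ± 0.09 (SE) or 1.17-fold. The 95% interval ran from -0.01 to 0.45, and limma gave an adjusted p of 1. With the experiment as a replicate block the interval was 0.10 to 0.34, and limma's adjusted p was 0.637. The two-sided exact permutation p was 0.2 over the labels, where 0.1 is the smallest possible, and 0.25 over the signs of the 3 pairs, which is the smallest possible.

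The other RHAG probe sets were higher with RNAi8 in the same way. On the dimmest the array pairs were 10.17 with RNAi8 and 10.02 with scrRNA in experiment 1, 9.94 and 9.37 in experiment 3, and 10.49 and 10.33 in experiment 2. On the remaining one they were 10.58 with RNAi8 and 10.49 with scrRNA, 10.19 and 9.69, and 10.92 and 10.81, in the same order of experiments. Experiment 3 gave the widest gap on all 3 probe sets, at 0.37 on the brightest 0.57 on the dimmest and 0.50 on the remaining one. Experiments 1 and 2 gave gaps of 0.09 to 0.18, and without experiment 3 the difference on the brightest was 0.15. With every probe set tested separately and the replicate block, each of the 3 RHAG probe sets had an adjusted p of 0.835 in limma.

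**Figure D1:**
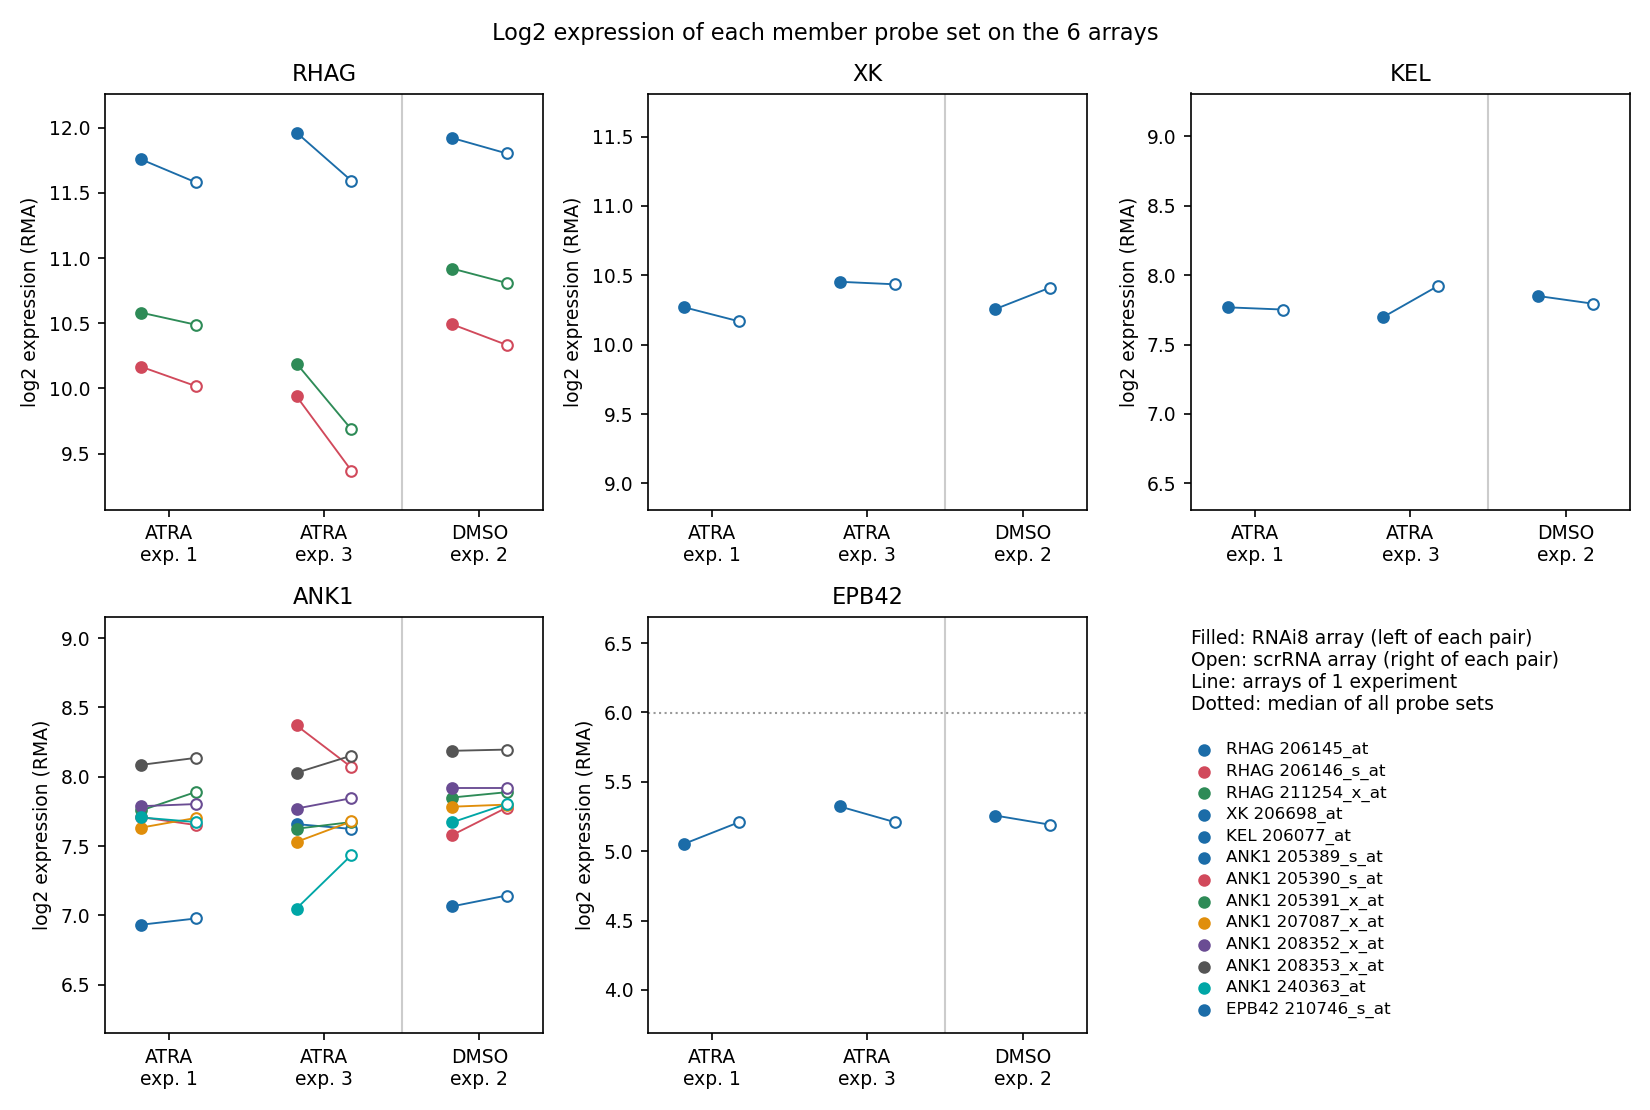
RMA log2 expression (y axis) of the 13 probe sets of RHAG, XK, KEL, ANK1 and EPB42 by experiment (x axis), with RNAi8 arrays as filled points left of the open scrRNA points and a line joining arrays of 1 experiment. All 9 RHAG lines drop to the right, and the EPB42 points lie below the dotted median of all probe sets (5.99).

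KEL and XK, the partners of the Kell complex, did not share a direction over the experiments. KEL read 7.77 with RNAi8 and 7.75 with scrRNA in experiment 1, 7.70 and 7.92 in experiment 3, and 7.85 and 7.79 in experiment 2. XK read 10.27 with RNAi8 and 10.17 with scrRNA in experiment 1, 10.45 and 10.44 in experiment 3, and 10.26 and 10.41 in experiment 2. For both genes the RNAi8 and scrRNA arrays overlapped. The mean difference was -0.05 for KEL (95% interval -0.29 to 0.19) and -0.01 for XK (-0.33 to 0.30), each with an adjusted p of 1 in limma. The intervals include differences of these sizes in either direction, so equal levels were not shown.

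ANK1, the ankyrin that joins band 3 to spectrin, had mean differences within 0.16 of 0 on each of its 7 probe sets. On the brightest the arrays read 8.09 with RNAi8 and 8.14 with scrRNA in experiment 1, 8.03 and 8.15 in experiment 3, and 8.19 and 8.20 in experiment 2. The mean difference was -0.06 (95% interval -0.28 to 0.15; adjusted p of 1 in limma). The exact permutation p was 0.3 over labels and 0.25 over pair signs. Over the 7 ANK1 probe sets the mean differences ran from -0.16 to 0.05, and 3 of the 7, the brightest among them, were lower with RNAi8 in every experiment. How many of all probe sets were so was not counted, and probe sets of 1 gene are not separate observations.

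EPB42 was the only member read below the median of all values. Its probe set read 5.05 with RNAi8 and 5.21 with scrRNA in experiment 1, 5.32 and 5.21 in experiment 3, and 5.26 and 5.19 in experiment 2. The mean difference was 0.01 (95% interval -0.20 to 0.21; adjusted p of 1 in limma), and the groups overlapped. At this signal a small change in EPB42 RNA would be hard to detect.

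Of the 5 members, 0 passed an adjusted p of 0.05 for RNAi8 against scrRNA, as did 0% of all 19775 genes. Of these genes, 255 had an unadjusted p under 0.05. With the replicate block, 0 of 5 members passed, against 0.0253% of all genes, namely PRAME, FN1, NORAD, PRSS2 and SLC16A9. At an unadjusted p under 0.05 with that block, 1 of 5 members, RHAG, was called, against 6.41% of all genes. RHAG was also the 1 member higher in all 3 experiments, where 13.1% of all genes were, and ANK1 the 1 member lower in all 3, where 11.9% were. The median difference was -0.01 over the 5 members and 0.01 over all genes tested. With the replicate block and every probe set tested separately, the 95% intervals were -0.15 to 0.12 for XK and -0.21 to 0.11 for KEL. They were -0.19 to 0.07 for the brightest ANK1 probe set and -0.17 to 0.19 for EPB42.

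**Figure D2:**
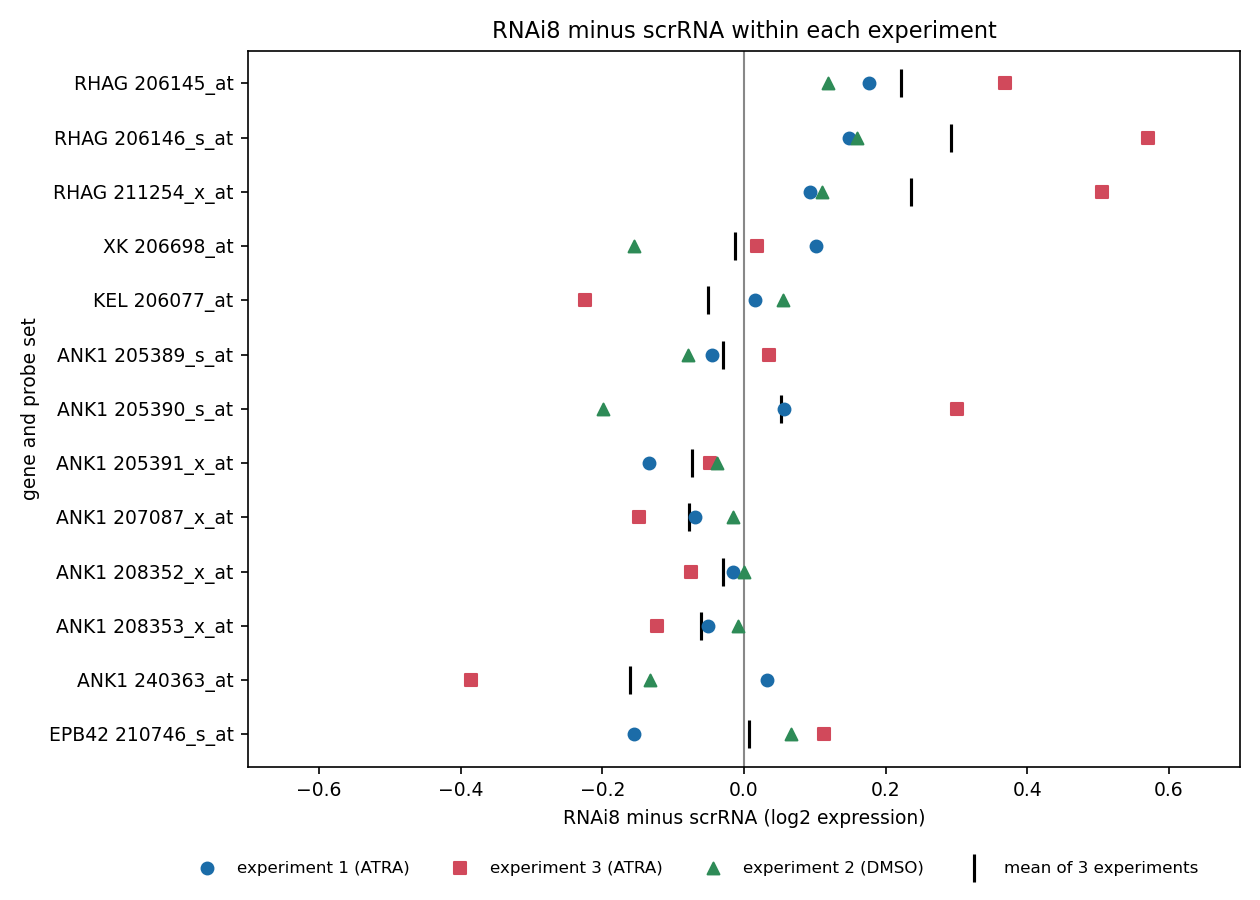
Difference in log2 expression, RNAi8 minus scrRNA (x axis), for each probe set (y axis), with a symbol for each experiment and a bar at the mean of the 3. All symbols of the 3 RHAG probe sets lie right of 0, with experiment 3 farthest out, while XK, KEL and EPB42 have symbols on both sides.

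Under ATRA the RHAG probe sets were lower than under DMSO, by amounts that differed between probe sets. ATRA was compared with DMSO over experiment means, 2 experiments against 1, so that treatment and experiment cannot be told apart. In experiment 1 minus experiment 2 the differences were -0.19 on the brightest RHAG probe set and -0.32 and -0.33 on the others. In experiment 3 minus experiment 2 they were -0.08, -0.76 and -0.93 on the same probe sets. On the 2 dimmer RHAG probe sets all 4 ATRA arrays lay below both DMSO arrays, and on the brightest the groups overlapped. How many of all probe sets lay below in this way was not counted.

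The RHAG difference was -0.14 on the brightest probe set (SE 0.20, 95% interval -0.72 to 0.44, adjusted p of 0.995 in limma) and -0.44 on the mean of the 3 probe sets. The range between probe sets was 0.14 in experiment 1 minus experiment 2 and 0.84 in experiment 3 minus experiment 2. Over 2484 genes with at least 3 bright probe sets the medians of this range were 0.15 and 0.75. The RHAG ranges were thus close to the median of these genes, and the part of the 3′ to 5′ signal of experiment 3 in them was not tested.

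The 7 ANK1 probe sets did not move one way. In experiment 3 minus experiment 2, a pair of ANK1 probe sets stood at 0.54 each and another at -0.49. In experiment 1 minus experiment 2 the pair stood at -0.15 and 0.00, and the other at -0.05. The remaining 4, among them the brightest at -0.08 in experiment 1 and -0.10 in experiment 3, lay between -0.22 and -0.05. On 3 of the 7, the brightest among them, all 4 ATRA arrays were below both DMSO arrays. How many of all probe sets did so was not counted, and probe sets of 1 gene are not separate observations. The range between ANK1 probe sets was 0.15 without experiment 3 and 1.04 with it, and the brightest gave a mean ATRA minus DMSO difference of -0.09 (95% interval -0.74 to 0.56; adjusted p of 0.995 in limma).

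XK, KEL and EPB42 were close to their DMSO levels. XK was at -0.12 in experiment 1 and 0.11 in experiment 3, relative to experiment 2. KEL was at -0.06 and -0.01, and EPB42 at -0.09 and 0.04. Their 95% intervals for ATRA minus DMSO were -0.82 to 0.82 for XK, -0.62 to 0.54 for KEL and -0.29 to 0.24 for EPB42. With 1 DMSO experiment, changes of these sizes could not be detected.

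**Figure D3:**
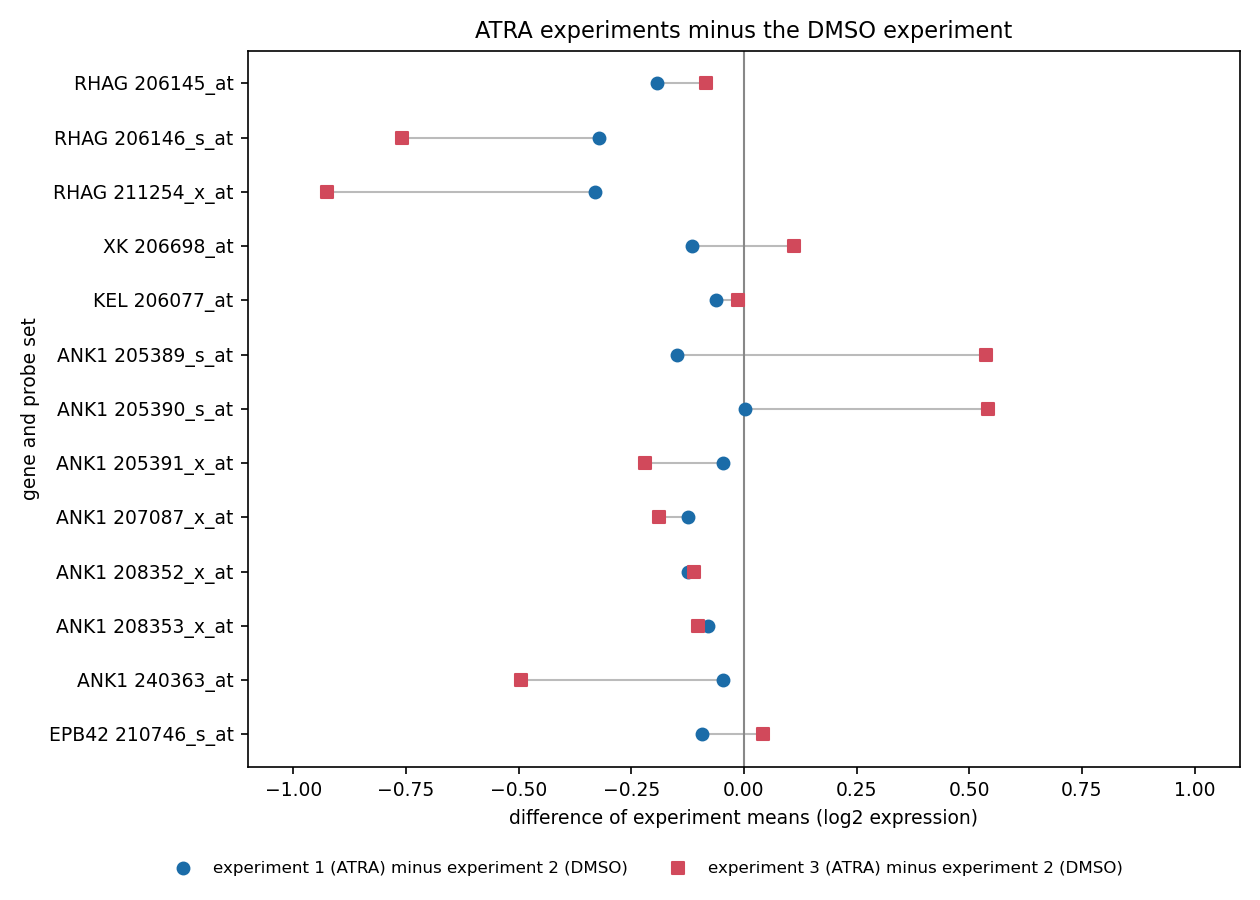
Difference of experiment means in log2 expression (x axis) for each probe set (y axis), with experiment 1 minus experiment 2 as circles and experiment 3 minus experiment 2 as squares. The circles lie between -0.33 and 0.00, while the squares of RHAG and ANK1 spread from -0.93 to 0.54.

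For ATRA against DMSO, 0 of 5 members and 0% of all genes passed an adjusted p of 0.05, with 235 genes at an unadjusted p under 0.05. With experiment as a random block over the 6 arrays 0 of 5 members passed, against 0.0101% of all genes, CYP26A1 and PDK4. Of the members, 0 had all 4 ATRA arrays above both DMSO arrays on the brightest probe set, where 13.5% of all genes did. ANK1 was the 1 member with all 4 below, where 13.2% of all genes were. The median difference was -0.04 over the members and -0.01 over all genes.

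The effect of RNAi8 was also compared between ATRA and DMSO. The difference of effects, ATRA minus DMSO, was 0.15 for RHAG (95% interval -0.46 to 0.77), 0.21 for XK (-0.64 to 1.07) and -0.16 for KEL (-0.78 to 0.46). It was -0.08 for ANK1 (-0.67 to 0.51) and -0.09 for EPB42 (-0.62 to 0.44). Each had an adjusted p of 1 in limma, and 0 of 5 members and 0% of all genes passed, with 262 genes at an unadjusted p under 0.05. The intervals are wider than any of the members' RNAi8 differences, so equal effects under both treatments were not shown.

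Other genes of the red cell membrane were taken as lists. Of the membrane skeleton (spectrin, protein 4.1, adducins and partners) 11 of 14 genes were measured, of the other blood group carriers 23 of 24, and of the transporters 11 of 13. For RNAi8 against scrRNA, 0 genes of the 3 lists passed, with 4 skeleton genes higher and 7 lower, 10 carriers higher and 13 lower, and 8 transporters higher and 3 lower. Over all 19775 genes, 10466 were higher and 9309 lower. ADD1, the alpha subunit of adducin, which caps actin in the skeleton, read 9.98 with RNAi8 and 10.20 with scrRNA in experiment 1, 10.55 and 10.67 in experiment 3, and 9.83 and 10.11 in experiment 2. It was lower with RNAi8 in 3 of 3 experiments, and its difference of -0.20 had an adjusted p of 1 in limma, and 0.645 with the replicate block. It was -0.10 on the average of the ADD1 probe sets and ran from -0.38 (without the RNAi8 array of experiment 3) to -0.05 (without that of experiment 1) when 1 array was left out. Among the carriers, ABO, the glycosyltransferase of the ABO antigens, was at -0.19, with 0.05 in experiment 1, -0.56 in experiment 3 and -0.06 in experiment 2, and without experiment 3 it was at -0.0061. ACHE, which carries the Yt antigen, was at 0.08, and at 0.07 without experiment 3. Among the transporters, the mechanosensitive channel PIEZO1 was at -0.07, but at 0.04 without experiment 3. The transferrin receptor TFRC was at 0.07, and at 0.06 without experiment 3.

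For ATRA against DMSO, also with 0 genes passing, 8 skeleton genes were higher and 3 lower (median 0.18), 6 carriers were higher and 17 lower (median -0.10), and 6 transporters were higher and 5 lower (median 0.04). Over all 19775 genes, 9452 were higher and 10323 lower (median -0.01). AQP3, an aquaglyceroporin that carries the GIL antigen, read 8.87 and 9.22 on the RNAi8 arrays and 8.82 and 9.22 on the scrRNA arrays under ATRA, in experiments 1 and 3. Under DMSO it read 10.10 with RNAi8 and 10.20 with scrRNA, so that all 4 ATRA arrays were lower. Its difference was -1.12 (95% interval -2.05 to -0.19) with an adjusted p of 0.995 in limma. Both of its other probe sets were also lower, at -0.41 and -0.35 in experiment 1 and -0.54 and -0.47 in experiment 3. AQP1, another carrier, was higher, at 0.26 in experiment 1 and 0.24 in experiment 3. On its other probe set it was at 0.64 and 1.56. The carriers SLC14A1 and FUT1 were at -0.20 and -0.12, but their mean levels, 3.44 and 5.76, were below the median of all values.

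KCNN4, the Gardos potassium channel of the red cell, read 7.44 and 8.01 on the RNAi8 arrays and 7.55 and 7.95 on the scrRNA arrays under ATRA, in experiments 1 and 3. Under DMSO it read 7.01 with RNAi8 and 6.82 with scrRNA. All 4 ATRA arrays were higher, and the difference was 0.82 (95% interval 0.03 to 1.60; adjusted p of 0.995 in limma). ADD2, the beta subunit of adducin, was at 0.57, with 0.21 in experiment 1 and 0.93 in experiment 3, but at 0.25 on the average of its probe sets. BSG, which carries the Ok antigen and was picked out after its values were seen, was at -0.13 in experiment 1 and -1.19 in experiment 3. For ADD2 and BSG experiment 3 thus supplied most of the difference, whereas AQP3 and KCNN4 showed it in both ATRA experiments. TPM1, a tropomyosin of the skeleton, was at 0.27, but at -0.03 on the average of its probe sets. The palmitoylated protein MPP1 was at 0.26 and beta-spectrin (SPTB) at -0.25. Of the transporters, ATP1B1 was at -0.09 and ATP2B1 at 0.47. The other ATP2B1 probe sets were at 0.36 and 0.38 in experiment 1, but at -0.82 and 1.28 in experiment 3. All 4 ATRA arrays lay above both DMSO arrays for 4 of 11 skeleton genes, 3 of 23 carriers and 2 of 11 transporters, against 13.5% of all genes. They lay below both for 2 of 11 skeleton genes, 10 of 23 carriers and 0 of 11 transporters, against 13.2% of all genes.

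For the difference of RNAi8 effects, ATRA minus DMSO, 0 genes of the 3 lists passed. Of the skeleton genes 7 were higher and 4 lower, of the carriers 12 and 11, and of the transporters 5 and 6. Over all 19775 genes, 10086 were higher and 9689 lower. SEMA7A, which carries the John Milton Hagen antigen, was at -0.31 and ABCG2, which carries the Junior antigen, at 0.23. The mean level of ABCG2, 5.14, was below the median of all values.

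**Figure D4:**
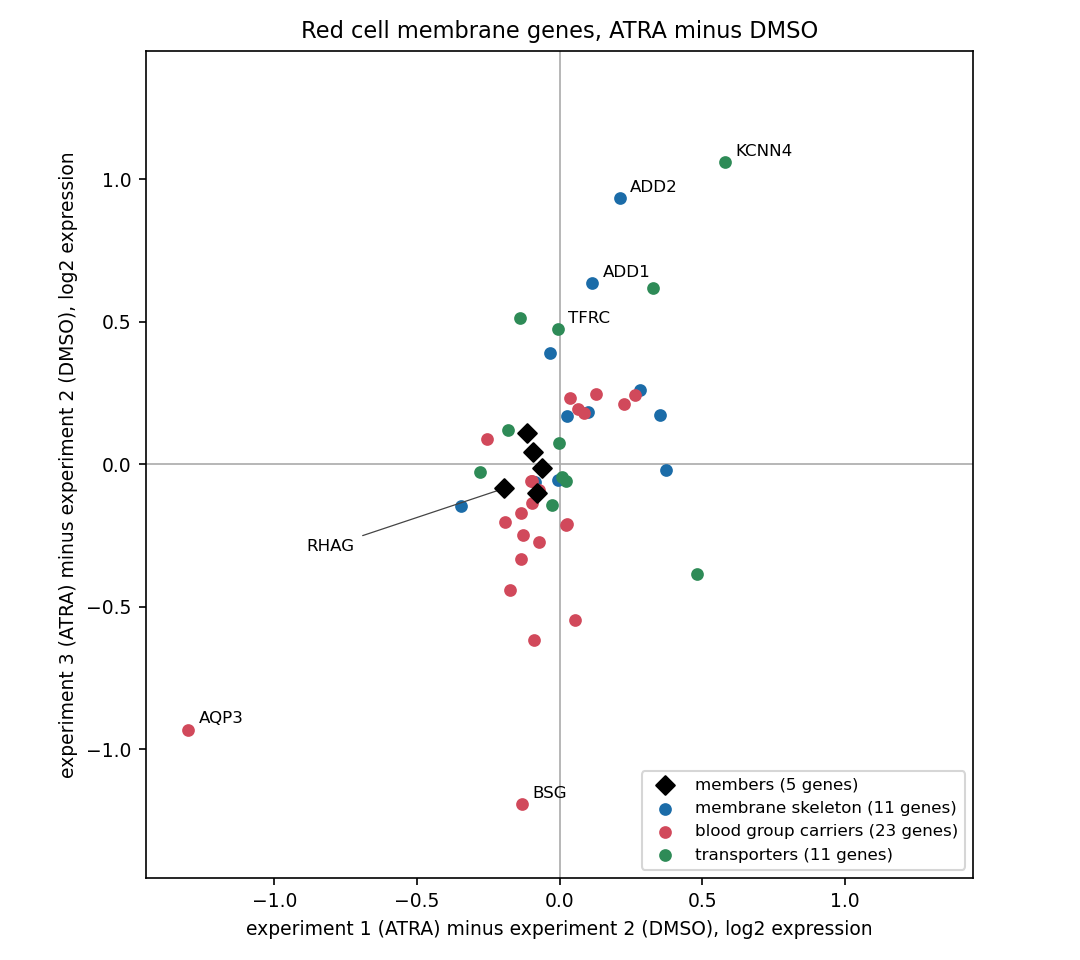
Difference from experiment 2 (DMSO) in log2 expression, experiment 1 on the x axis and experiment 3 on the y axis, for the brightest probe set of each of 5 members, 11 skeleton genes, 23 blood group carriers and 11 transporters. The 5 members sit near 0 on both axes, AQP3 lies low on both at -1.30 and -0.93, and KCNN4 lies high on both at 0.58 and 1.06.

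Over the 6 arrays the brightest probe sets of the members spanned 0.17 (ANK1) to 0.38 (RHAG) log2 units, against a median span of 0.32 over all genes. None of these brightest probe sets spanned more than 1 unit, the limit above which genes of like profile were to be named, so none are named. The dimmer RHAG probe sets spanned 1.12 and 1.23 units, both past that limit, and were not used for it.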

How the data were processed

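K562 RNA was hybridised to 6 arrays, 1 sample each. The values the authors deposited are log2 expression from RMA, which the submitters' processing notes name. The series' design text gives BRB-ArrayTools as the software. The RMA version and settings are unknown here. The number of arrays limits the precision.

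Of 54675 probe sets, 62 were controls, 41091 were annotated to 1 gene, 1801 to several and 11721 to none listed. Each of 19775 genes was represented by its probe set of highest mean, with no filter. Models were fitted in limma 3.58.1 (R 4.3.3) with lmFit, then eBayes with trend, and p-values were adjusted by Benjamini-Hochberg over 19775 genes, with a threshold of 0.05. RNAi8 was tested over 6 arrays with treatment as covariate (3 residual degrees of freedom), ATRA over experiment means (1), and the difference of RNAi8 effects in a fit of 4 groups (2), where each lone DMSO array is assumed to vary like the others. The fits were tested on simulated data. Exact permutation tests were two-sided.

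RNAi8 and scrRNA arrays share experiment numbers, which the labels call independent experiments. Deviations from the mean of each RNAi label correlated at 0.679, 0.795 and 0.883 within numbers. Between experiments 1 and 2 they correlated at 0.534 and 0.402, and between experiment 3 and the others at -0.796 to -0.627. Treatment, shared within a number, stayed in these deviations, and for experiment 2, the only one with DMSO, pairing cannot be told apart from it. Experiments 1 and 3 both had ATRA, and between them the correlations were -0.727 and -0.627. The part of treatment in the correlations was not tested. The main RNAi8 fit used no pairing, and the replicate block was the alternative that did. Whether samples came from separate cultures beyond the experiment numbers is not stated. In the main RNAi8 fit and the fit of 4 groups, p-values measure the spread between these arrays. In the main ATRA fit they measure the spread between experiment means, and in the replicate block that between the differences within experiments.

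The rule for named genes took all members with all their probe sets, PRAME, and up to 4 genes of smallest p from each list. Not all of these list genes are described above for each comparison. The members and lists were chosen with earlier results of these data known. Alternatives were the average of probe sets, a filter at the median, repeated quantile normalization, eBayes without trend, replicate or random blocks, 1 RNAi group alone, leaving out each replicate, and testing each probe set. Promoters were matched by symbol to RefSeq (GRCh38.p14).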

Additional observations from a re-analysis of the deposited data

Results flagged for a closer look

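For 2 of the 13 member probe sets the RNAi8 minus scrRNA difference had one sign in both ATRA experiments and the opposite sign in the DMSO experiment. The share of all probe sets with this pattern was not counted, so the 2 are not shown to be unusual. On the XK probe set the difference of effects, ATRA minus DMSO, was 0.21, with 0.10 in experiment 1, 0.02 in experiment 3 and -0.16 in experiment 2. On 1 of the 7 ANK1 probe sets it was 0.38, with 0.06 in experiment 1, 0.30 in experiment 3 and -0.20 in experiment 2. For XK, limma's adjusted p for the difference of effects was 1, as it was for the ANK1 probe set with every probe set tested separately. DMSO was 1 experiment, so this pattern was not replicated.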

How the results depend on the processing

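Over the alternatives, 128 values of RHAG, XK, KEL, ANK1 and EPB42 kept their direction and 19 turned. The 128 include settings that cannot alter the difference, namely the median filter, eBayes without trend and the blocks over all arrays. Averaging cannot alter it for XK, KEL and EPB42, with 1 probe set each. Keeping the direction there was fixed in advance. Of all 147 values 127 were tested, of which 0 passed an adjusted p of 0.05, and 20, without an ATRA experiment, had no test. RHAG kept its direction in every alternative tried, at 0.15 to 0.27 for RNAi8. Its RNAi8 differences were above 0 on each probe set in each experiment. Averaging probe sets or leaving an experiment out of the block therefore could not turn it. Its ATRA differences were likewise all below 0, so averaging or leaving out an ATRA experiment could not turn them. Leaving out 1 array of experiment 1 or 3 could have turned the RNAi8 difference, and did not. The replicate block gave 5 genes for RNAi8, against 0 without it, and 1 to 2 genes with a replicate left out. With every probe set tested separately, a setting chosen after seeing the data, it gave 1. Experiment as a random block gave 2 genes for ATRA, and 0 with every probe set tested separately.

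With an array left out, the RNAi8 difference ran from -0.109 to 0.0596 for XK, from -0.104 to 0.0126 for KEL and from -0.0607 to 0.0926 for EPB42. In the replicate block with an experiment left out it turned to 0.0596 for XK, to 0.0356 for KEL, and to -0.0216 and -0.0449 for EPB42. For ATRA, XK was 0.105 on RNAi8 arrays alone and ran from -0.115 to 0.111 without an ATRA experiment. On scrRNA arrays alone KEL was 0.0428 and EPB42 0.0187, and EPB42 ran from -0.0923 to 0.0419 without an ATRA experiment. For the difference of effects, EPB42 ran from -0.222 to 0.0466, and ANK1 was 0.0200 on the average of probe sets.

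Averaging probe sets also turned SEMA7A (RNAi8, 0.0193), TPM1 (ATRA, -0.0258) and SLC4A1 (difference of effects, 0.0372), and repeated quantile normalization turned TPM1 (difference of effects, -0.000142). With an array left out the RNAi8 difference of SEMA7A ran from -0.197 to 0.0181, that of SLC29A1 from -0.000993 to 0.0688, that of PIEZO1 from -0.185 to 0.0684 and that of TFRC from -0.0781 to 0.200. In the block without experiment 3 it was 0.00378 for SEMA7A, 0.00689 for SLC12A4 and 0.0440 for PIEZO1. The ATRA differences of TFRC (-0.00742 to 0.475) and PRAME (-0.162 to 0.000789) and PRAME's difference of effects (-0.0280 to 0.249) also turned. The causes were not tested.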
